A study of Caenorhabditis elegans with 2 samples.

Results

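The male ciliary genes lov-1, pkd-2, klp-6, cil-7, cwp-1 and cwp-4 were examined for peaks of the transcription factor DAF-19. They are 6 of 19973 nuclear protein-coding genes of Caenorhabditis elegans, and were chosen by name as genes of the program of the male isoform DAF-19M. Their peaks were read in the promoter window, which began 1000 bp before an annotated transcript start and ended 200 bp after it, and across the gene body. No promoter window of the 6 held a thresholded summit. The strongest series-wide peaks at pkd-2 and klp-6 lay inside the genes, that of klp-6 within a noncoding RNA gene, and the peak upstream of pkd-2 sat on a tRNA gene.

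DAF-19 is the RFX family transcription factor of the worm, and it switches on genes of sensory cilia through a sequence called the X-box. Its isoform DAF-19M acts in the ciliated neurons that worms use in male mating and that release extracellular vesicles. LOV-1 and PKD-2 are the polycystin-1 and polycystin-2 homologues, a receptor-channel pair on the cilia of these neurons that serves response to a mate and location of the vulva. KLP-6 is a kinesin-3 motor of the same cilia, CIL-7 is a protein needed for normal vesicle formation, and the cwp genes were found by their coexpression with the polycystin genes.

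Chromatin immunoprecipitation with an anti-GFP antibody had been done on 2 biological replicates of one group, whole L4 larvae of strain OP794 48 hours old, from cultures synchronized at the starved L1 stage. The strain is unc-119 (tm4063), rescued by unc-119(+), and carries the array wgIs794, a daf-19 transgene tagged with TY1, EGFP and 3xFLAG. The labels do not give the sex of the larvae or say which DAF-19 isoforms carry the tag, and they name a control experiment whose data were not analysed here. In whole larvae, fewer cells of a type and less binding per cell cannot be told apart.

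The deposited peak lists comprised a ranked and a thresholded list of each replicate and of both replicates together. The main series-wide ranked list held 117986 peaks, and its thresholded list, the conservative one, held the 996 of them with a −log10 irreproducible discovery rate (IDR) of 2 or more. A second series-wide pair held 117981 and 915 peaks. Replicate 1 had 112641 ranked and 408 thresholded peaks, and replicate 2 had 110961 and 394. Signals are the authors' own and their scaling is not given in the sources used here, so they were compared within a list and as percentiles of the 19973 genes. The lists used here also hold no peak in 1004 stretches of 10 kb or more, 31.4% of their span, with 31 further gaps of 5 to 10 kb and 69167 shorter ones. A promoter window or gene body lying wholly in such a stretch has no value here, which holds for the promoter windows of 4940 genes, 24.7% of the total, and for 4711 gene bodies, 23.6%.

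Of the 6 members, cwp-1 was such a gene. It lies on the minus strand at chrV:4840617-4841279, 663 bp long, inside a stretch without a ranked peak from chrV:4827369 to 4843517, 16149 bp. The nearest listed peaks of the main list were 2432 bp upstream of its start, with a signal of 34.0, and 14100 bp downstream, with a signal of 78.6. The binding at cwp-1 is therefore not analysed here, so a count over 6 members includes 1 gene that could not be called.

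**Figure D1:**
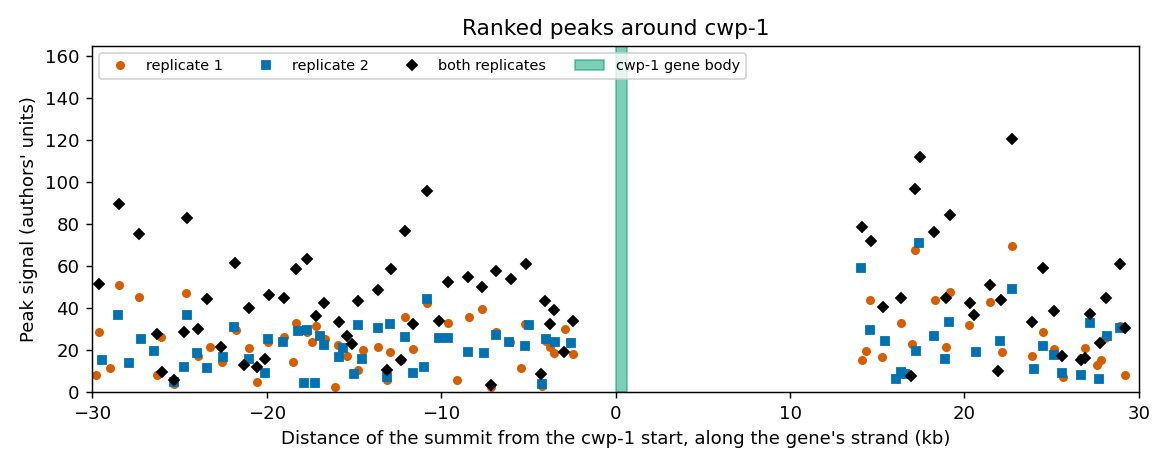
Signal of each ranked peak (vertical axis, authors' units) by distance of its summit from the cwp-1 start along the gene's strand (horizontal axis, kb), for replicate 1, replicate 2 and both replicates together. No list has a peak over the gene body. The nearest summits downstream of the start are at 14100 bp in the main list, 14108 bp in replicate 1 and 14095 bp in replicate 2, and the nearest upstream at 2432, 2419 and 2577 bp.

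No member had a thresholded summit in its promoter window. In the conservative list this was 0 of 6 genes, and 0 of the 5 with listed peaks, where 2.48% of all genes had one and 3.29% of the 15033 genes with a promoter window outside the unlisted stretches. The count was 0 of 6 in the other series-wide list, in replicate 1 and in replicate 2 as well, against 2.24%, 1.08% and 0.976% of all genes. At such shares a count of 0 among so few genes does not set the members apart. Over the ranked peaks, the strongest promoter signal of the members had a median percentile of 68.8, with a median of 76.9 in replicate 1 and 42.6 in replicate 2. These values count cwp-1 and every other gene without a peak as lowest, and with genes in unlisted stretches left out the median over the remaining members was 87.1.

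**Figure D2:**
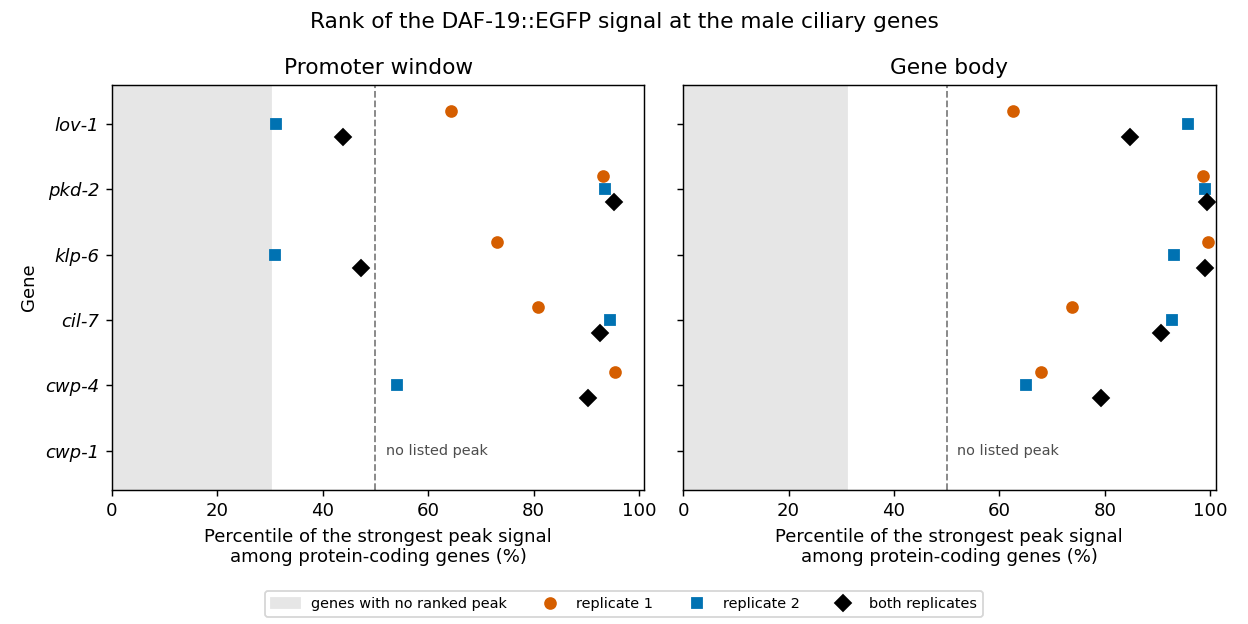
Percentile of the strongest peak signal of each member among 19973 protein-coding genes (horizontal axis, %) in the promoter window and in the gene body, with circles for replicate 1, squares for replicate 2 and diamonds for both together. The grey band covers genes with no ranked peak, the dashed line marks percentile 50, and pkd-2 lies at percentile 93.1 or higher in every case shown.

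In the series-wide lists the strongest promoter signal of the members belonged to pkd-2, at chrIV:15227814-15234993 on the minus strand, while cwp-4 was higher in replicate 1 and cil-7 in replicate 2. The signal of its upstream peak was 49.1 in replicate 1, 44.3 in replicate 2 and 91.8 in the main series-wide list, percentiles of 93.1, 93.6 and 95.2. The replicate summits were 5 bp apart and the series-wide summit was 464 bp upstream of the start, with a −log10 IDR of 1.69. That summit lay inside a tRNA-Val gene of 73 bp, WBGene00014602, at chrIV:15235388-15235460 on the opposite strand. No other member had its strongest promoter summit within 200 bp of a small RNA gene, counting those of tRNAs, rRNAs, snRNAs and snoRNAs. Among all genes with a listed promoter peak 1.16% had their strongest one that near, and among genes above percentile 95 the share was 9.51%. With peaks near small RNA genes left out, a choice made after the data were seen, pkd-2 fell to percentile 15.2, that of a gene without a peak. The summit was also inside the promoter window of lgc-52, a ligand-gated ion channel gene on the plus strand. The part of the tRNA gene in the signal was not tested.

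The window of 100 bp each side of that summit is printed to show the overlap, on the strand of pkd-2 at chrIV:15235357-15235557, with the tRNA gene in capitals, read from the WBcel235 sequence (RefSeq). A B box, the internal promoter element of tRNA genes, was searched on both strands as GTTCGANNC and was found in it; 1.62% of the windows of this size around all ranked summits hold that motif, 16.2% of those in the conservative list and 7.58% of all promoter windows, which are 1201 bp long.
pkd-2 upstream peak: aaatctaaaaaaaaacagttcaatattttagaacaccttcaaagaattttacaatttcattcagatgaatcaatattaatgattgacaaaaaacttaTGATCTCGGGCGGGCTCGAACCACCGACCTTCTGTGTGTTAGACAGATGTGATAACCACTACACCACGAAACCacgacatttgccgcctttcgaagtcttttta

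In the conservative list, the only thresholded summit in a member's promoter window or gene body was inside pkd-2. Its strongest gene body peak, at chrIV:15232974-15233353, reached 64.9 in replicate 1, 64.8 in replicate 2 and 139.9 in the main list, the 359th highest rank of that list. Its percentiles among all genes were 98.6, 99.0 and 99.4, and among 2594 genes within 1.5-fold of its length of 7180 bp it stood at 98.6. The replicate summits were 6 bp apart, in coding exon 2, and the −log10 IDR was 2.65 in the main list, 1.21 in replicate 1 and 1.75 in replicate 2, so that it passed the limit of 2 only in the series-wide lists. The other 10 ranked peaks of the gene body had signals of 17.8 to 57.5. The gene holds 26 piRNA genes, the nearest of which was 349 bp from the summit, and the nearest small RNA gene, a snoRNA gene, was 1282 bp away. No B box and no full X-box match was found within 100 bp of the summit, which says only that these letters are not in this window.
pkd-2 exon 2 peak: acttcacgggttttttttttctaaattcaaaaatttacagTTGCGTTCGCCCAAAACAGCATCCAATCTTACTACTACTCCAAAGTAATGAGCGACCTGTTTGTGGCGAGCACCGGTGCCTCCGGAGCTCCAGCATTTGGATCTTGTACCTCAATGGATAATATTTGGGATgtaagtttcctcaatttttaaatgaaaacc
The capitals mark the 131 bases of exon 2, and the window is chrIV:15233064-15233264 on the strand of the gene.

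The count of members with a gene body summit in the conservative list was thus 1 of 6, where 2.16% of all genes had one and 2.83% of the 15262 outside the unlisted stretches. In the other series-wide list it was 2 of 6, pkd-2 and klp-6, against 2.08%. Replicate 1 alone had 1 of 6, klp-6, against 0.776%, and replicate 2 had 0 of 6, against 0.761%. Which gene passed therefore differed between the lists. The counts rest on at most 2 genes and were not tested against these shares. By gene length pkd-2 stood at percentile 90.9 and klp-6 at 87.0, and no share among genes of like length is given here.

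The kinesin gene klp-6, at chrIII:5030929-5036583 on the plus strand, had its strongest peak in intron 2. The signal was 89.7 in replicate 1, at 629 bp from the start, and 126.2 in the main list, at 513 bp. Replicate 2 had weaker peaks there, of 33.1 at 517 bp and 31.6 at 783 bp, and its strongest gene body peak, of 46.1, was 3014 bp from the start in intron 6. The percentiles were 99.6 in replicate 1, 93.2 in replicate 2 and 99.0 in the main list. The −log10 IDR of the series-wide peak was 1.26 in the main list and 2.46 in the other, and that of the replicate 1 peak was 2.56. The replicates thus put their strongest gene body peak 2385 bp apart, and of the 2 only replicate 1 had it in intron 2. In replicate 2 the intron 2 peak of 33.1 had rank 13335 of 110961 ranked peaks.

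The series-wide and replicate 1 summits of intron 2, and that of replicate 2 at 517 bp, lay inside srpr-2.2. This is a noncoding RNA gene of 299 bp at chrIII:5031410-5031708 on the opposite strand of the intron. RefSeq lists its product as unclassified, and its symbol is that of the signal recognition particle RNA genes, small RNA genes known to be read, like tRNA genes, by RNA polymerase III. It was not among the small RNA classes counted above for pkd-2. With peaks inside noncoding genes left out, a choice made after the data were seen, klp-6 stood at percentile 85.8 in the gene body, from a peak of 77.3 in the main list at 3104 bp. The part srpr-2.2 plays in the signal was not tested. The window printed here is chrIII:5031342-5031542, around the series-wide summit on the strand of klp-6, with srpr-2.2 in capitals.
klp-6 intron 2 peak: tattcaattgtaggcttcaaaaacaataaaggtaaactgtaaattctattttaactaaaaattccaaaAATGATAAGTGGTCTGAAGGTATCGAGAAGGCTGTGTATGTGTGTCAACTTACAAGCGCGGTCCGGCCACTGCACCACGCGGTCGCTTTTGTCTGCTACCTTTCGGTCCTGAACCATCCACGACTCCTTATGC

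In the promoter window, klp-6 had 1 ranked summit, with a signal of 34.7 in replicate 1, 8.85 in replicate 2 and 41.4 in the main list, percentiles of 73.1, 30.9 and 47.3. In replicate 2 the 29.7% of genes without a promoter peak count as lowest, so 30.9 was among the lowest percentiles of genes with a peak. The replicate summits lay 12 bp apart, 836 and 824 bp upstream of the start, inside the long noncoding RNA gene R144.19. With genes in unlisted stretches left out the series-wide percentile was 29.98, and without peaks inside noncoding genes it was 15.3, both choices made after the data were seen. A stronger main-list peak, of 71.3, had its summit 1003 bp upstream, just outside the window and also inside R144.19. Replicate 2 had a peak of 37.2 near it, at 1033 bp. Replicate 1 had none there, its next summit upstream of 836 bp being at 1766 bp. The series-wide percentile was 75.3 with the longer of the windows tried, and 81.6 when a peak had only to overlap the window by 1 bp, so the rank of klp-6 depended on where the window ended. The window holds the full X-box consensus, at all 12 specified positions, at chrIII:5030052-5030065, whose middle was 34 bp from the replicate 1 summit, 46 bp from the replicate 2 summit and 125 bp from the series-wide one. A full match was found in 10.7% of all promoter windows. It was found within 100 bp of 1.82% of the ranked summits of the main list and of 0.703% of the conservative ones. The series-wide klp-6 summit is not one of these, and no such share was made for the replicate lists. A match is a description of the letters and not of binding. The window around the replicate 1 summit, chrIII:5029993-5030193, is printed with the match in capitals.
klp-6 upstream peak: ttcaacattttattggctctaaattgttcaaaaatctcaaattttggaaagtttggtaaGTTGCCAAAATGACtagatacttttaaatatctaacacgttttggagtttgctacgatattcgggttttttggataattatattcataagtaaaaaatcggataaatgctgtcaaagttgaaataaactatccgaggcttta

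The gene cwp-4, at chrV:5053635-5056474 on the plus strand, also had a full X-box match near its strongest promoter peak. The signal was 53.8 in replicate 1, 23.6 in replicate 2 and 79.1 in the main list, percentiles of 95.5, 54.1 and 90.3. In the main list the −log10 IDR was 0.535, and ranked by that value the peak stood at percentile 70.7. It had rank 1963 of the 112641 ranked peaks in replicate 1 and rank 37436 of 110961 in replicate 2. The 2 summits were only 22 bp apart. The percentile of 54.1 counts genes without a peak as lowest, and among genes with one the median promoter signal in replicate 2 was 27.3. The summit was 342 bp upstream of the start and in an intron of K11D12.12, a protein-coding gene that ends before cwp-4 begins. The X-box match, at chrV:5053219-5053232, overlaps a coding exon of K11D12.12, and its middle was 67 bp from the series-wide summit, 90 bp from that of replicate 1 and 112 bp from that of replicate 2. The printed window is chrV:5053193-5053393, with the match in capitals.
cwp-4 upstream peak: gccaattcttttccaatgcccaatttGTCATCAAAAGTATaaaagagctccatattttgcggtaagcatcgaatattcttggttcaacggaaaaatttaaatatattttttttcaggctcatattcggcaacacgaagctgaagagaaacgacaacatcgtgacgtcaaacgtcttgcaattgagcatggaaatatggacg

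In the body of cwp-4 the strongest peak, in coding exon 6 at 2606 bp from the start, had a signal of 36.0 in replicate 1, 31.1 in replicate 2 and 71.2 in the main list. These stood at percentiles of 68.0, 65.1 and 79.3, and the replicate summits were 15 bp apart. The −log10 IDR was 0.817 in the main list, under the limit of 2. Thus the body of this gene was closer between replicates than its promoter window.

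The best X-box matches of lov-1, pkd-2 and cwp-1 had 11 of the 12 specified positions, as did that of cil-7. A match of at least 11 was found in 85.0% of all promoter windows, so it separates the members from few genes. The sites shown read 5′ to 3′ on the strand that fits the consensus, opposite to the gene, with capitals for specified positions that match and lower case for free or unmatched ones. The nearest site to the start is given where several tie, at chrII:10121989-10122002, chrIV:15235567-15235580 and chrV:4841688-4841701.
lov-1: ATTtCCATGGaAAt
pkd-2: ATAaTTTTtGaAAC
cwp-1: ATAaTaATGGtAAC

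The polycystin-1 gene lov-1, on the minus strand of chromosome II at 10109100 to 10121825, had the lowest series-wide promoter signal of the 5. The signal was 31.0 in replicate 1, 9.21 in replicate 2 and 38.7 in the main list, percentiles of 64.3, 31.0 and 43.9. The replicate 2 value was just above the 29.7% of genes that had no promoter peak in that list. With genes in unlisted stretches left out, the series-wide value was 25.5. The replicate summits were 73 bp apart, on either side of the start, and the peak was also in the promoter window of F27E5.7. Its long body of 12726 bp held 24 ranked peaks in the main list, the strongest at 6408 bp from the start in coding exon 17. That signal was 76.6 in the main list, while the strongest body signals of the replicates were 33.6 in replicate 1 and 49.7 in replicate 2, placed 3876 bp apart. Among all genes these were percentiles of 84.7, 62.5 and 95.7. Among 1173 genes within 1.5-fold of its length the series-wide percentile was 63.3. The gene bodies of the channel partners thus differed in the main list. The second strongest body peak had a signal of 70.0 in lov-1, near its strongest of 76.6, and of 57.5 in pkd-2, far under its strongest of 139.9.

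**Figure D3:**
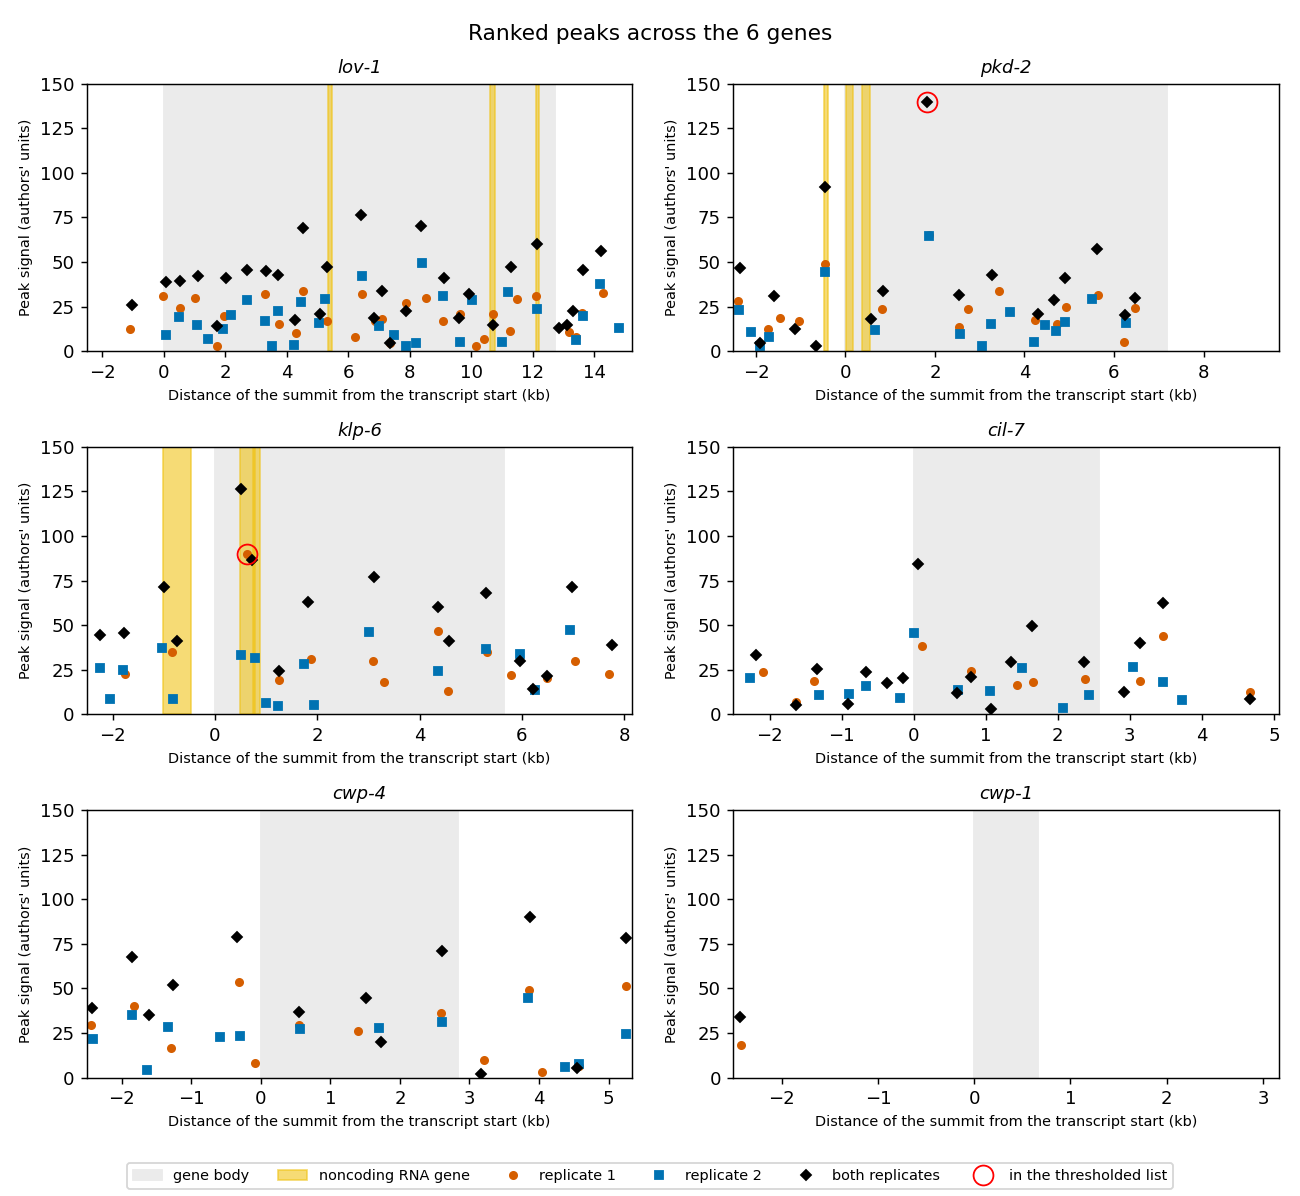
Signal of each ranked peak (vertical axis, authors' units) by distance of its summit from the transcript start along the gene's strand (horizontal axis, kb) in 6 panels, with the gene body in grey, noncoding RNA genes other than piRNA genes in yellow, and a red ring on peaks at a −log10 IDR of 2 or more in the main or replicate lists. The rings are on the pkd-2 peak of 139.9 and on the replicate 1 peak of klp-6 of 89.7.

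The vesicle gene cil-7, on the minus strand with a length of 2566 bp, had its strongest peak over its own start. Its signal was 38.5 in replicate 1, 45.6 in replicate 2 and 84.2 in the main list. The series-wide summit was 67 bp from the start in coding exon 1, and the replicate summits, 107 bp apart, were 118 bp from the start in intron 1 for replicate 1 and 11 bp from it in the first exon for replicate 2. As a promoter peak it stood at percentiles of 80.8, 94.5 and 92.7, and as a gene body peak at 73.8, 92.7 and 90.6. The −log10 IDR of the main list was 1.24. The other 6 peaks of the body were weaker, the next having a signal of 49.5. The core ciliary gene dyf-1 ends 94 bp upstream on the same strand.

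The strongest promoter peaks of the replicates lay within 100 bp of each other in 4 of the 5 members with listed peaks, cil-7 being the exception at 107 bp. Over all genes with a promoter peak in both replicates the share was 41.3%. In the gene body this held for 2 of the 5, pkd-2 and cwp-4, against 34.1%. Of the 4, lov-1, pkd-2 and klp-6 had 1 ranked summit in the promoter window of each replicate, so the replicates had no other summit there.

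**Figure D4:**
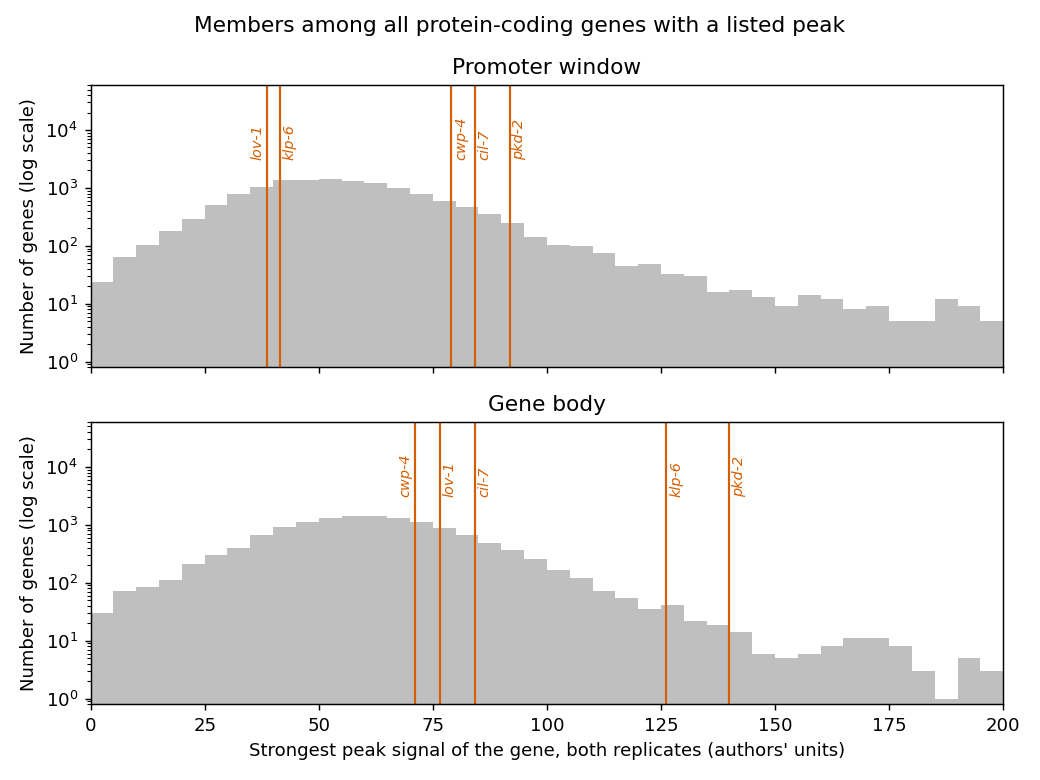
Number of protein-coding genes (vertical axis, log scale) by the strongest peak signal in the main series-wide list (horizontal axis, authors' units), for the promoter window and the gene body, with lines at the 5 members that have listed peaks. The axis ends at 200, past which lie 81 genes for promoters and 44 for bodies, and the lines of pkd-2 and klp-6 stand apart from the other members in the gene body plot.

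Across the gene bodies, the members had a median percentile of 87.7 in the main list, 70.9 in replicate 1 and 93.0 in replicate 2. With genes in unlisted stretches left out, the series-wide value over the remaining 5 was 87.7. A longer gene can hold more peaks, and set only beside genes within 1.5-fold of each member's length the median was 83.8. The distance from the start to the nearest conservative summit had a median of 15044 bp over the members and 47865 bp over all genes. Both medians include genes in unlisted stretches, with cwp-1 among the members, and no value without them is given here. The difference was not tested. It was 1829 bp for pkd-2, to its own exon 2 summit, and 4155 bp for cwp-4, to a summit near pqn-51. It was 12628 bp for klp-6, to a summit near wip-1, and 17460 bp for cwp-1, to one near hsp-6. For cil-7 it was 46238 bp, to a summit in lfe-2, and for lov-1 79058 bp, to one near arv-1.

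A pair of other lists gave the setting. Among 12 other genes of the vesicle-releasing neurons, none had a thresholded summit in the promoter window or in the gene body of any list. Their median promoter percentile was 49.8 in the main list, 49.5 in replicate 1 and 49.5 in replicate 2, and their median gene body percentile was 64.1, 59.8 and 63.1. The highest were the transcription factor gene egl-44, with a promoter signal of 90.2 at percentile 94.9, and rab-28, a small GTPase gene, with 60.2 at percentile 73.1. The genes cwp-2, cwp-3 and mapk-15 had no ranked promoter peak in the main list, and the window of cwp-3 lay in an unlisted stretch. The gene body of cwp-2 lay in one as well, and the gene body medians count it among the genes without a peak.

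Among 24 core ciliary genes, the intraflagellar transport, BBSome and transition zone genes taken as known targets of DAF-19, none had a thresholded promoter summit in any list. In the gene body 1 did, the transition zone gene nphp-4, in both series-wide lists and in neither replicate alone. Their median promoter percentile was 55.3 in the main list, 58.2 in replicate 1 and 50.1 in replicate 2, and in the gene body 67.8, 73.6 and 60.4. The transport gene dyf-2, with 89.1, and the BBSome gene bbs-8, with 74.2, had their highest promoter signals, at percentiles of 94.5 and 87.2. The promoter windows of osm-5, dyf-3, ift-20, bbs-1, bbs-5 and mks-1 lay in unlisted stretches and were not analysed here. So did the gene bodies of osm-5, dyf-3, bbs-1 and bbs-5. The medians over all 24 count these as genes without a peak. With genes in unlisted stretches left out, the median promoter percentile in the main list was 87.1 over 5 members, 35.2 over 11 other vesicle neuron genes and 46.4 over 18 core ciliary genes. The value of the members is that of cwp-4, which stood at percentile 54.1 in replicate 2 with all genes kept. Over the same full set of genes, the medians in replicate 2 were 42.6 for the members, 49.5 for the other vesicle neuron genes and 50.1 for the core ciliary genes. The difference between the members and either list was not tested.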

How the data were processed

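Deposited peak lists on assembly ce11 were used, 8 in all. The peak signal is the authors' own, and its normalization, the aligner, the peak caller and the read filters are not given in the sources seen. The deposited ranked lists hold a −log10 IDR for each peak, and the thresholded lists proved to be the ranked peaks at 2 or more, an IDR of 0.01 or less. The 16 further columns of the series-wide ranked lists were not used. No file gives read counts, so depth is unknown and no interval could be made. How the cultures of the biological replicates were grown is not in the labels.

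Summits were placed on the Ensembl release 115 annotation, and every peak lies within the WBcel235 chromosomes. A percentile is the mid-rank of the gene's strongest signal among 19973 protein-coding genes. Scripts used Python 3.11.15, numpy 2.4.6 and pandas 2.3.3, and were tested on peaks placed at known genes. Of 43 listed symbols 42 were found. Unlisted stretches are gaps between peaks of the main and both replicate ranked lists. The known X-box consensus was scored on both strands of each promoter window. No test was run, since there is 1 group of 2 samples. All members were named. From the comparison lists, genes with a thresholded promoter summit were to be named, otherwise the 2 highest and the lowest by promoter percentile, with ties; nphp-4 is named for its gene body summit. Genes sharing a member's strongest peak or nearest to its nearest conservative summit were also named. Members and lists were chosen with earlier results of these data known.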

Additional observations from a re-analysis of the deposited data

How the results depend on the processing

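The count of members with a thresholded promoter summit stayed at 0 except at a −log10 IDR of 1.3 or more, where it was 1 (pkd-2). The gene body count was 2 in the other series-wide list and 0 at a −log10 IDR of 3 or more, with 0 without replicate 1 and 1 (klp-6) without replicate 2. The promoter median percentile was 42.6 without replicate 1 and 76.9 without replicate 2, and 37.6 without peaks inside noncoding genes; the gene body median was 93.0 without replicate 1 and 70.9 without replicate 2. The median distance to a thresholded summit was 36070 bp without replicate 1, 71398 bp without replicate 2 and 148174 bp at a −log10 IDR of 3 or more. At these settings the lists hold fewer thresholded peaks than the main one, and the median over all genes is not given here. The cause was not tested. Replicate coincidence and the other settings of these results moved by less than the limits set for them. Those limits were wide for the promoter median, which was 68.8 in the main setting. Within them it ran from 46.1, without peaks near small RNA genes, to 87.1, with genes in unlisted stretches left out. Over 134 combinations of a single member and a setting, 45 moved beyond a limit that could be less than the full difference between replicates. For klp-6 the promoter percentile of 81.6, with overlap by 1 bp, counted as moved from 47.3. Its replicates stood at 73.1 and 30.9. The combinations include those of cwp-1, whose percentiles are those of a gene without a peak. The settings on small RNA genes, noncoding genes and unlisted stretches were chosen after seeing the data. No paired analysis was possible because there is 1 group. Depth is unknown, and neither the control experiment nor genes in unlisted stretches were analysed here.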
